A study of Arabidopsis thaliana with 9 samples.

Results

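ABH1 (AT2G13540, also called CBP80) encodes the larger of the subunits that form the nuclear cap-binding complex, and the small RNA reads counted over this single gene are described here across 9 Arabidopsis thaliana libraries. It is 1 gene of the 37336 listed, and it was picked from the same 9 library columns because its reads nearly vanish in rls6. No numeric threshold stood behind that choice. The low rls6 values are therefore given as a description, with no test. Small RNA of 17 to 30 nt, cut from a gel, was sequenced from soil-grown plants. There were 3 libraries of each genotype: rls6, prors1 (LUC) and Col-0 (LUC). All plants grew for 25 days with 16 h of light and 8 h of dark, and a second label gives their age as 26 days. Col-0 is the common laboratory accession. The labels do not say what LUC marks, which alleles prors1 (LUC) and rls6 carry, or whether rls6 also carries LUC, and the source label calls the mutants rbp-ko-1 and rbp-ko-2. Nor do they say that libraries of one genotype are separate plants or pools, so the p-values below reflect the spread between libraries, which may be technical.

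The nuclear cap-binding complex joins a large subunit, ABH1, and a small subunit, CBP20, on the methylated cap that RNA polymerase II transcripts receive at their 5′ end. In Arabidopsis the complex acts in pre-mRNA splicing and in the processing of primary microRNA transcripts, together with SERRATE. Plants that lack ABH1 are hypersensitive to abscisic acid, flower early and have serrated leaves. A small RNA read at a protein-coding gene is a short RNA cut from, or copied from, that gene's transcript or DNA. It does not measure the mRNA, so the values below say nothing of how much ABH1 protein or mRNA the plants had.

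In the TAIR10.1 reference, ABH1 lies on the plus strand at chr2:5636884-5643066 and spans 6183 bases. It has 18 exons with 2969 bases and 17 introns with 3214 bases. The coding region runs from 5637053 to 5642813 and its 2547 coding bases encode 848 amino acids. No other annotated gene overlaps it. The start of its reading frame is shown as the anchor of the locus, with the start codon in capitals, at chr2:5637053-5637136 in exon 1.

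ABH1 coding start: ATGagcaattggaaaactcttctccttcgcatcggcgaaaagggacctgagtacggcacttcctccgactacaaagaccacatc

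Almost every stretch of ABH1 as long as a small RNA is found nowhere else in the genome. Of the 6163 windows of 21 bases along the gene, 6142 (99.7%) occur once in the nuclear and organelle genome, on either strand. With windows of 24 bases the share was 99.9%. None of the repeated windows lies in the coding exons. They fall in a stretch of the 5′ UTR, where a window occurs up to 8 times in the genome, and in intron 14. The name of the deposited data includes the word exon, so reads within introns may not have been counted. No window of ABH1 occurs in the chloroplast or mitochondrial genome. The 4 listed genes that share a window with ABH1 share between 1 and 5, and 0 genes share 10 or more. Intron 14 is printed because it holds the sole 21-base stretch of ABH1 that recurs inside the gene. Its capitals mark both copies, and it lies at chr2:5641201-5641401 on the plus strand.

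ABH1 intron 14: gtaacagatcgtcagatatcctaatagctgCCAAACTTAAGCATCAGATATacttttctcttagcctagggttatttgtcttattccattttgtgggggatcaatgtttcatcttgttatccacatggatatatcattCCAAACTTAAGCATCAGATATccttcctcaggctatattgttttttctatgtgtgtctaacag

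Inverted repeats, whose arms can pair when transcribed, were short in ABH1. The longest exact ones had 14 bases. One is a palindrome in intron 8, at chr2:5639159-5639172, and the other pairs a stretch of exon 7, at chr2:5638710-5638723, with a stretch of exon 18. Both are shown in capitals because the whole stretch is the repeat.

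ABH1 intron 8 palindrome: AAGATTGCAATCTT
ABH1 exon 7 arm: TGAGATTGAAAGAG

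**Figure D1:**
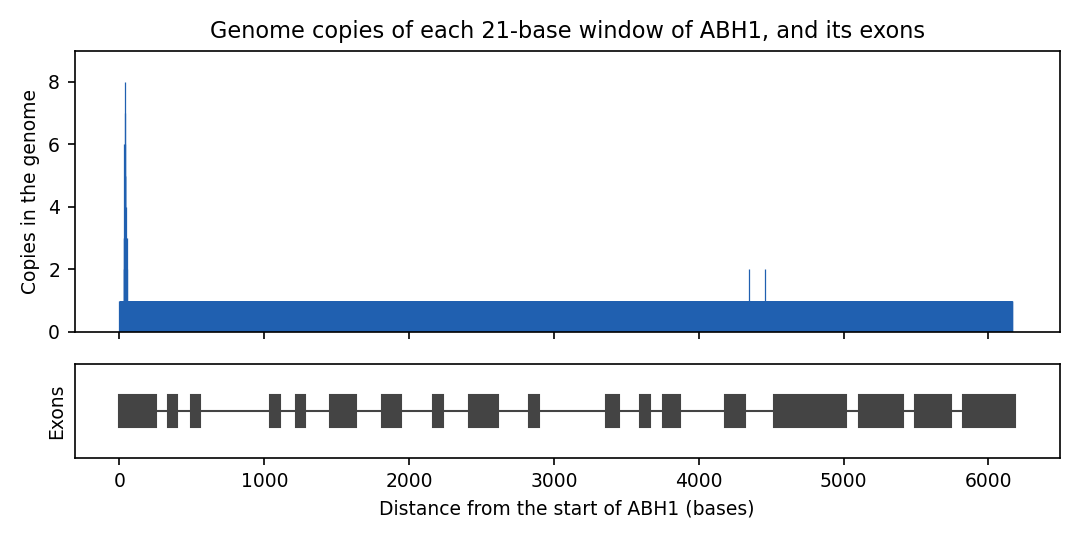
Number of copies in the TAIR10.1 genome of each 21-base window of ABH1 (upper panel, y axis) against its distance in bases from the start of the gene (x axis), with the 18 exons as boxes in the lower panel. Copies exceed 1 only near the gene start, reaching 8, and at a pair of positions in intron 14.

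The 9 libraries held 611238 to 702303 reads over annotated genes, and the authors' size factors lay between 0.950 and 1.24. The gene with most reads took 13.0% to 22.3% of a library. Of all genes, 4766 had at least 10 normalized reads, meaning reads divided by the library's size factor, in at least 3 libraries and were tested. ABH1 was one of them. It passed this filter through its Col-0 (LUC) and prors1 (LUC) libraries, since no rls6 library reached 10 normalized reads.

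Col-0 (LUC) plants had plentiful small RNA at ABH1. The 3 libraries had 157, 182 and 153 normalized reads, from 188, 227 and 149 reads. Their mean was 164 ± 16.0 (SD, n = 3), while counting error alone would give an SD of 12.1. Per exon length this was 55.3 normalized reads per kb, which placed ABH1 at rank 476 of 27444 protein-coding genes, whose median was 0.146.

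In prors1 (LUC) the level was lower in every library. The 3 libraries had 95.8, 100.2 and 67.7 normalized reads, from 91, 104 and 66 reads, with a mean of 87.9 ± 17.6 (SD, n = 3). The groups did not overlap, and the highest prors1 (LUC) library lay well below the lowest Col-0 (LUC) library. The mean was 53.6% of that in Col-0 (LUC). Summed over libraries, the reads gave a Col-0 (LUC) to prors1 (LUC) ratio of 1.87 (95% exact counting interval 1.62 to 2.18). Counting intervals here cover counting error only, since reads without molecular identifiers are not independent molecules.

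On the log2(normalized reads + 1) scale the difference from Col-0 (LUC) was -0.91 ± 0.19 (SE), with a limma adjusted p of 0.00223 over the 4766 tested genes and lower values in 3 of 3 libraries. Since ABH1 was picked from these library columns, its high Col-0 (LUC) values among them, this p is not independent of the choice of the gene. In the same comparison 6.63% of tested genes were called lower and 7.74% higher. The groups separated downwards in this way, with all prors1 (LUC) libraries below all Col-0 (LUC) libraries, at 13.2% of tested genes. A lower log2 value than that of ABH1 was found at 148 of the 4766 genes. A two-sided exact permutation test on the ABH1 values alone gave p = 0.1, the smallest that 3 libraries against 3 allow. The authors' deposited table holds a comparison whose headers name no groups, though the table's name includes prors and Col-0. That comparison follows prors1 (LUC) over Col-0 (LUC) with a Pearson r of 0.991 across tested genes. It gives ABH1 a log2 fold change of -0.89 ± 0.19 (SE) and a DESeq2 adjusted p of 8.65e-05.

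In rls6 very little was left. The 3 libraries had 5.50, 6.60 and 9.91 normalized reads, from only 6, 7 and 10 reads, with a mean of 7.34 ± 2.298 (SD, n = 3). Every rls6 library lay below every prors1 (LUC) library. The spread between the rls6 libraries was no wider than counting error alone would give, an SD of 2.63. The highest counting interval in rls6 ended at 18.2 normalized reads, and the lowest in prors1 (LUC) began at 52.4. The mean was 4.47% of that in Col-0 (LUC). Summed reads were 22.7 times higher in Col-0 (LUC) than in rls6 (95% exact counting interval 15.0 to 36.1) and 12.1 times higher in prors1 (LUC) than in rls6 (7.90 to 19.4). The log2 differences were -4.34 from Col-0 (LUC) and -3.43 from prors1 (LUC). These values chose the gene and are not tested. For reference, 4.95% of tested genes were called lower and 12.7% higher in rls6 against Col-0 (LUC), and 5.16% lower and 11.7% higher against prors1 (LUC).

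The remaining small RNA at ABH1 in rls6 still exceeded that of most protein-coding genes. It came to 2.47 normalized reads per exon kb, at rank 2309 of 27444, against a median of 0.161. In prors1 (LUC) the corresponding level was 29.6 per exon kb, at rank 744, against a median of 0.125. In whole plants, fewer cells of a type and less RNA per cell cannot be told apart.

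**Figure D2:**
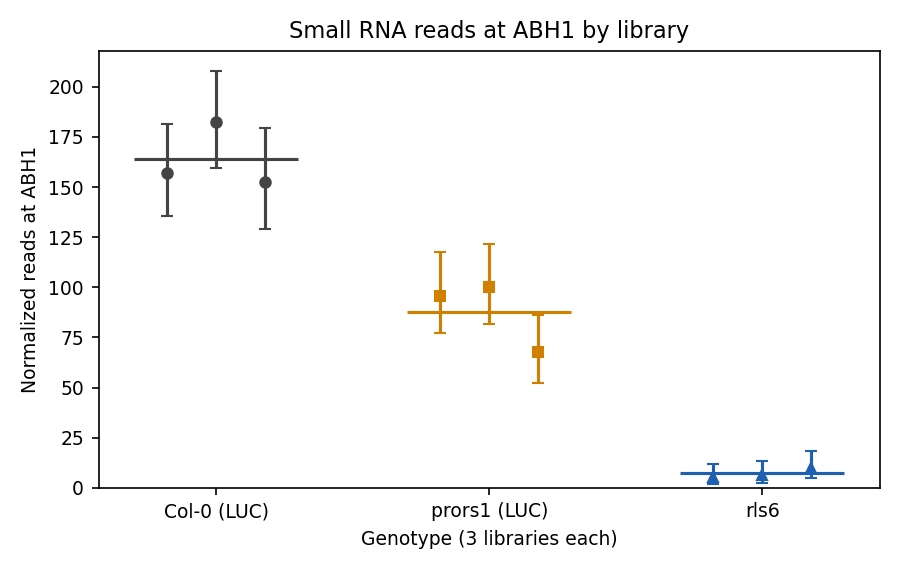
Normalized reads at ABH1 in each library (y axis) by genotype (x axis); bars on points are 95% exact counting intervals and horizontal lines are genotype means. The 3 genotypes do not overlap, with means of 164, 87.9 and 7.34.

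The stepwise order, with all rls6 libraries below all prors1 (LUC) libraries and these below all Col-0 (LUC) libraries, was shared by 30 tested genes, or 0.629%. Of these, 10 were protein-coding. In 5 of the 30, picked out after their values were seen, the rls6 mean was under 0.1 of the Col-0 (LUC) mean. They were ABH1, the F-box genes AT4G12820 and AT1G32140, the RING/U-box gene AT4G10160 and the transporter gene AT1G68570. AT4G10160 averaged 148, 34.7 and 10.08 normalized reads in Col-0 (LUC), prors1 (LUC) and rls6. AT4G12820 averaged 44.2, 7.10 and 0.941. AT1G68570 averaged 15.8, 4.75 and 0.916, and an antisense RNA gene overlaps it by 988 bases, so that reads of the pair cannot be told apart here. These counts use the values that chose ABH1 and are a description.

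The 6 genes whose values were most like those of ABH1 over the 9 libraries had Pearson correlations of 0.951 to 0.978 on the log2 scale. The next gene reached 0.949, and 26 tested genes were over 0.9. The 9 points are 3 sets of 3 libraries and share depth and size factors, so the correlations mostly follow the genotype means. A zinc finger (C2H2, AN1-like) gene, AT3G57480, came first, with r = 0.978. It averaged 660, 487 and 218 normalized reads in Col-0 (LUC), prors1 (LUC) and rls6. The histone H2A gene HTA4 (AT4G13570) came second, with r = 0.970 and means of 176, 120 and 48.9. A miRNA gene on its opposite strand, AT4G13564, shares 212 bases with it, and strand was not resolved here.

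AT1G32140, an F-box gene, had r = 0.967 and emptied further than ABH1 in rls6. Its Col-0 (LUC) libraries had 349, 302 and 359 normalized reads and its prors1 (LUC) libraries 215, 215 and 231. Its rls6 libraries had 1.83, 0.942 and 0, from 3 reads in all. The other three, the pseudogenes AT2G12060, AT2G07570 and AT4G07720, changed much less. Their rls6 means were 63.9%, 66.6% and 67.3% of their Col-0 (LUC) means, and their prors1 (LUC) means were 92.2% to 93.9%. A high correlation thus covered both deep and shallow falls. The windows of AT3G57480 and AT1G32140 were nearly as placeable as those of ABH1, with 96.6% of 21-base windows occurring once in each. In HTA4 the share was 67.8% and in the pseudogenes 62.6% to 91.6%, so reads there may come from other loci.

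**Figure D3:**
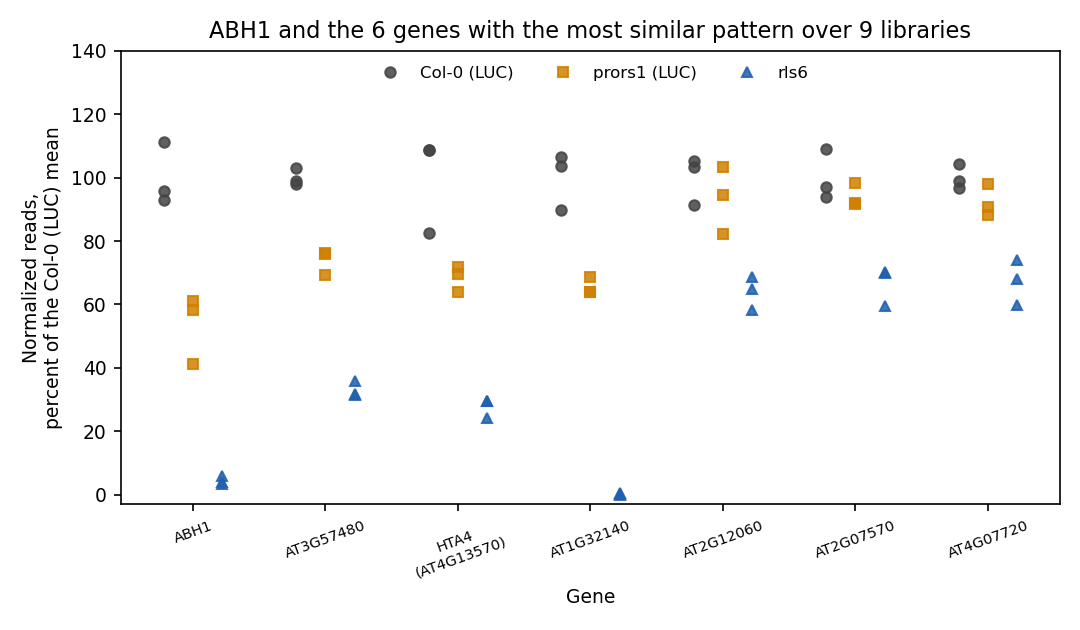
Normalized reads of ABH1 and of the 6 genes with the highest correlation to it, as a percent of each gene's Col-0 (LUC) mean (y axis), with 1 point per library. In rls6, ABH1 averages 4.47% and AT1G32140 0.275%, while the 3 pseudogenes at the right stay between 63.9% and 67.3%.

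Within 25 kb on either side the table lists 22 genes, of which 11 could be tested. Against Col-0 (LUC), 0 of these 11 were called lower in prors1 (LUC) by limma, and 0 had an unadjusted p under 0.05 downwards. edgeR and DESeq2 also called 0 lower. With 6.63% of all tested genes called lower, a count of 0 among 11 is near the background. Their median log2 difference was -0.02, beside 0.01 over all tested genes. In rls6 against Col-0 (LUC), 1 of the 11 was called lower and 1 higher by limma, beside 4.95% and 12.7% of all tested genes. At an unadjusted limma p under 0.05, 4 were lower and 2 higher. The 4 were upstream pseudogenes (AT2G13470, AT2G13480, AT2G13490 and AT2G13520). The 2 were AT2G05925 and AT2G13530, the nearest upstream pseudogene (log2 0.50, limma adjusted p = 0.0591). The share of all tested genes under that unadjusted p is not given here. Over the 11 the median log2 difference was -0.30, beside -0.02 over all tested genes. Summed over the 11, the libraries of Col-0 (LUC) had 455 ± 25.3 normalized reads (SD, n = 3), those of prors1 (LUC) 464 ± 19.0 and those of rls6 587 ± 16.9. A single gene, AT2G05925, carries the higher rls6 sum. Without it, a split chosen after seeing the data, the other 10 summed to 420.4 ± 22.5, 420.8 ± 18.7 and 354 ± 29.0 in the same order. Of these 10, 8 had a log2 difference from Col-0 (LUC) below 0 in rls6 and 7 in prors1 (LUC). The medians over all tested genes were -0.02 in rls6 and 0.01 in prors1 (LUC). Within 250 kb the 64 tested genes summed to 3600 ± 34.3, 3718 ± 85.1 and 3712 ± 57.3. Their median log2 differences were 0.04 in prors1 (LUC) and -0.09 in rls6 against Col-0 (LUC).

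The neighbour before ABH1, the pseudogene AT2G13530, lies 354 bases upstream on the minus strand. The Col-0 (LUC) libraries had 40.1, 46.6 and 30.7 normalized reads there, the prors1 (LUC) libraries 52.6, 60.7 and 76.9, and the rls6 libraries 51.3, 61.3 and 52.5. Its prors1 (LUC) libraries were all above its Col-0 (LUC) libraries. The share of tested genes that separate upwards in this way is not given here. AT2G13530 was the 1 gene of the 11 called higher, with a log2 difference of 0.68 ± 0.18 (SE, limma adjusted p = 0.0114). With 7.74% of all tested genes called higher in this comparison, 1 among 11 is near the background. Leaving out Col-0 (LUC) replicate 3 ended the call (log2 0.52, limma adjusted p = 0.0791), as did leaving out prors1 (LUC) replicate 3 (0.54, adjusted p = 0.0827). It also ended with DESeq2 (adjusted p = 0.0677), library totals (0.0652) and no variance trend (0.0592). The neighbour after ABH1, the defensin-like gene AT2G13542, lies 103 bases downstream on the minus strand and had 1 read in all 9 libraries. ABH1 thus lies between a gene with moderate small RNA and one with almost none.

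The long non-coding RNA gene AT2G05925, 18.1 kb downstream, moved in the opposite direction to ABH1 in rls6. The Col-0 (LUC) libraries had 31.8, 37.0 and 35.9 normalized reads, the prors1 (LUC) libraries 40.0, 48.2 and 41.0, and the rls6 libraries 246, 231 and 221. All rls6 libraries stood far above the rest. The log2 difference was 2.71 ± 0.14 (SE) from Col-0 (LUC), with a limma adjusted p of 8.71e-13, and 2.41 ± 0.14 from prors1 (LUC), with an adjusted p of 9.31e-12. In AT2G05925, 83.5% of 21-base windows occur once in the genome.

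A pair of pseudogenes upstream were modestly lower in rls6, AT2G13520 against Col-0 (LUC) and AT2G13490 against prors1 (LUC). AT2G13520, which lies 1.50 kb before ABH1, had 79.4, 90.0 and 72.8 normalized reads in Col-0 (LUC) and 51.3, 52.8 and 64.4 in rls6. The groups did not overlap, and its log2 difference was -0.52 ± 0.15 (SE, limma adjusted p = 0.0140). Leaving out replicate 2 of Col-0 (LUC) ended the call (limma adjusted p = 0.0598), as did leaving out rls6 replicate 1 (0.0729) or 2 (0.0646), using DESeq2 (0.0779), or testing without a filter (0.124). At AT2G13490 the rls6 libraries had 64.1, 70.7 and 63.4 normalized reads, and the prors1 (LUC) libraries 98.9, 92.5 and 90.3. Its log2 difference was -0.50 ± 0.13 (SE, limma adjusted p = 0.00810), again with no overlap, and the call ended with DESeq2 (adjusted p = 0.0866) and without a filter (0.113). The share of tested genes that separate without overlap is not given here for the rls6 comparisons. For prors1 (LUC) below Col-0 (LUC) it was 13.2%, so separation alone is not rare. Neither fall came near that of ABH1 in size. The other tested neighbours, which include the Ta11-like retrotransposon genes AT2G13500 and AT2G13510, passed in none of the 3 comparisons.

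**Figure D4:**
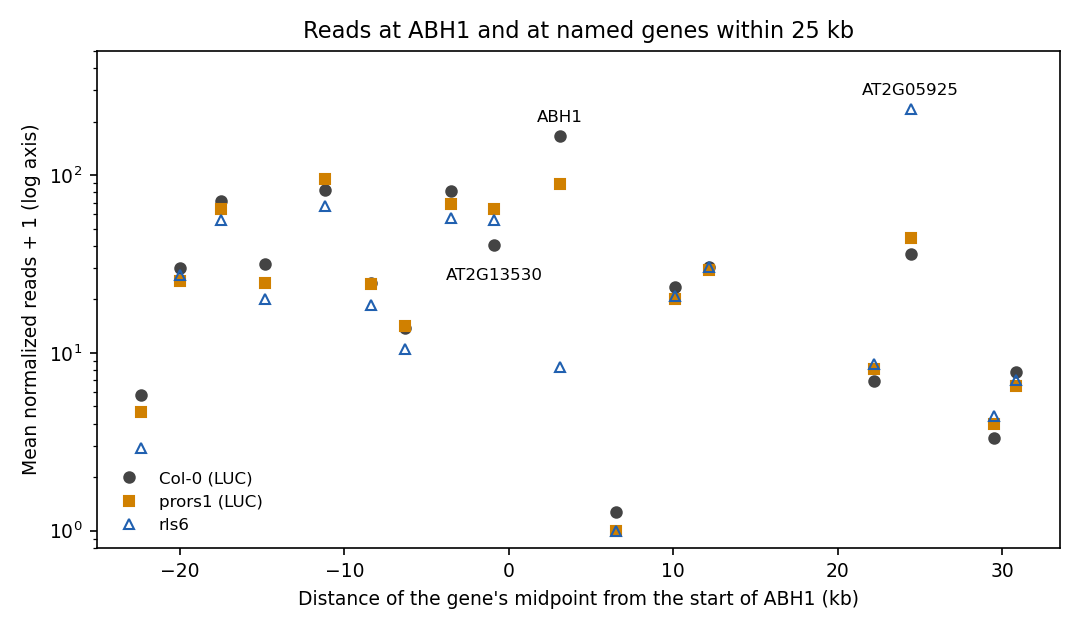
Mean normalized reads plus 1 (log y axis) of ABH1 and of the 16 named genes within 25 kb, against the distance in kb of each gene's midpoint from the start of ABH1 (x axis), for the 3 genotypes. ABH1 falls from 164 to 7.34 between Col-0 (LUC) and rls6, and AT2G05925 rises from 34.9 to 233.

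The other cap-binding and cap-dependent initiation genes gave few small RNA reads. The cap-binding partner of ABH1, CBP20 (AT5G44200), had 1 read in all, in rls6. The 7 cap-binding and cap-dependent initiation genes besides ABH1, which include the cytoplasmic cap-binding proteins EIF4E1 and NCBP and the scaffold EIF4G, had 35 reads together. None had enough reads to be tested. Their summed normalized reads were 4.44 ± 0.606 (SD, n = 3) for rls6, 3.05 ± 1.09 for prors1 (LUC) and 3.67 ± 2.67 for Col-0 (LUC). A difference at these genes was not detectable at this depth. Over all libraries they averaged 0.069 (EIFISO4E) to 0.556 (NCBP) normalized reads per exon kb. The medians of protein-coding genes in the 3 genotypes were 0.125 to 0.161. So low a level is thus not particular to these genes.

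Of 17 genes of microRNA processing and action, 3 could be tested. They were DCL1, the Dicer that cuts microRNA precursors, AGO1, the slicer guided by microRNAs, and CPL1, a phosphatase that acts on HYL1. At AGO1 the Col-0 (LUC) libraries had 40.1, 48.2 and 46.1 normalized reads, the prors1 (LUC) libraries 25.3, 37.6 and 27.7, and the rls6 libraries 44.0, 44.3 and 42.6. Its prors1 (LUC) libraries lay below all others. All prors1 (LUC) libraries lay below all Col-0 (LUC) libraries at 13.2% of tested genes. AGO1 fell in prors1 (LUC) by 0.57 ± 0.18 on the log2 scale (SE, limma adjusted p = 0.0375) and was 0.54 ± 0.18 higher in rls6 than in prors1 (LUC) (adjusted p = 0.0446). Across the alternatives tried, its first adjusted p ranged from 0.0126 to 0.251 and its second from 0.0133 to 0.336. Of the 21 alternatives, 8 ended the first call and 13 the second. DESeq2 ended both (adjusted p = 0.213 and 0.255), as did limma without a filter (0.251 and 0.336). With edgeR the second ended (adjusted p = 0.0636). Leaving out Col-0 (LUC) replicate 2 (adjusted p = 0.0961) or 3 (0.108), or prors1 (LUC) replicate 1 (0.150) or 3 (0.109), ended the first call. The second ended without replicate 3 of Col-0 (LUC), with an adjusted p just above 0.05, without prors1 (LUC) replicate 1 (0.173) or 3 (0.123), and without rls6 replicate 1 (0.111), 2 (0.114) or 3 (0.0954). DCL1 averaged 28.2 ± 6.41, 25.2 ± 3.69 and 24.1 ± 5.09 normalized reads, and CPL1 10.8 ± 1.11, 4.76 ± 1.35 and 8.01 ± 4.22. Neither passed the test in any comparison with the authors' size factors, but with library totals CPL1 was called lower in prors1 (LUC) (log2 -1.18, limma adjusted p = 0.0434, against -1.05 and 0.0693). AGO1 did not pass in rls6 against Col-0 (LUC) (log2 -0.03 ± 0.18, adjusted p = 0.940). Of all tested genes, 6.63% were called lower in prors1 (LUC) against Col-0 (LUC) and 11.7% higher in rls6 against prors1 (LUC). With 3 genes tested, 1 call in each of these comparisons says little of the list as a whole.

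Among 35 flowering-time genes, FVE, a repressor of FLC, was the 1 that could be tested, and among 23 abscisic acid signalling genes it was the receptor gene PYL8. FVE averaged 53.2 ± 11.6 (SD, n = 3), 55.8 ± 3.67 and 58.9 ± 2.46 normalized reads in Col-0 (LUC), prors1 (LUC) and rls6. PYL8 averaged 6.46 ± 4.42, 8.32 ± 3.77 and 9.13 ± 1.90. With limma, 0 of these were called in any comparison and 0 had an unadjusted p under 0.05, and edgeR and DESeq2 also called 0. Over all tested genes 4.95% to 12.7% were called per direction and comparison. With 1 gene tested per list, a count of 0 is thus near the background. Without the filter on low values, 1 flowering-time gene, the floral repressor gene TOE1, was called lower in prors1 (LUC), with 12 reads against 39 in Col-0 (LUC) (log2 -1.46, limma adjusted p = 0.0148). The flowering-time list summed to 95.6 ± 8.76, 83.7 ± 5.31 and 101 ± 7.64 normalized reads in the same order, and the abscisic acid list to 20.2 ± 6.78, 21.1 ± 7.01 and 24.3 ± 3.84. Each of these lists as a whole had fewer normalized reads in Col-0 (LUC) than ABH1 alone. microRNAs themselves could not be followed, since 0 of the 326 MIR genes of the reference are rows of the table.

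The share of calls that were higher depends on the scaling of the libraries. In rls6 against Col-0 (LUC) 71.9% of calls were higher with the authors' size factors, 54.6% with upper-quartile factors and 52.4% with library totals. In rls6 against prors1 (LUC) the share was 69.3%, and 54.6% with upper-quartile factors. In prors1 (LUC) against Col-0 (LUC) it was 53.9%, and 31.6% with library totals. Library totals moved the median of all genes to -0.12 in prors1 (LUC) and -0.15 in rls6 against Col-0 (LUC), and upper-quartile factors moved the latter to -0.11. Under library totals ABH1 had a log2 difference from Col-0 (LUC) of -1.05 in prors1 (LUC) and -4.46 in rls6. With the authors' size factors these were -0.91 and -4.34. The rls6 values chose the gene and were not tested.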

How the data were processed

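Small RNA reads were measured per gene in 9 libraries, grouped by the titles and genotype labels. The submitters' processing notes name the TAIR10 build with featureCounts, Bowtie2, FastQC and Trimmomatic; their versions, the strand setting and the counting of multiply placed reads are not stated by the sources used here. The signal values deposited by the authors are each gene's reads over the size factor of the library. All were whole multiples of 1 read within 1e-06 (100% of values), so reads were recovered. The deposited table also holds the authors' log2 fold changes, a Wald score and raw and adjusted p-values, per the file headers (DESeq2, from its name). Those headers name no groups, but the name includes prors and Col-0.

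The test was limma 3.58.1 in R 4.3.3 on log2(normalized reads + 1), allowing the variance to follow the mean level. It fitted genotype alone over the 9 libraries, for 4766 genes that reached 10 normalized reads in 3 or more of them, and calls were made at an adjusted p of 0.05 (Benjamini-Hochberg). On this scale changes of low genes are understated. Because the deposited values are normalized, count tests were alternatives only: edgeR 4.0.16 (quasi-likelihood) and DESeq2 1.42.0 were run on the recovered reads, and edgeR called 364 genes higher and 313 lower in prors1 (LUC) against Col-0 (LUC). Other alternatives changed the pseudocount, filter, scaling, trend, samples fitted and replicate block, or left out a library. The fits were also run on simulated data, whose outcome is not given here. Depth was 611238 to 702303 reads per library, which leaves single genes at low counts imprecise. Names, coordinates and windows come from TAIR10.1, in which 37051 identifiers matched. Named genes were ABH1, genes next to it, genes within 25 kb with at least 10 reads in all, the 6 tested genes with the highest correlation to it, and tested members of 4 gene lists. ABH1 and the lists were chosen with earlier results of these data known.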

Additional observations from a re-analysis of the deposited data

How the results depend on the processing

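The fall of ABH1 in prors1 (LUC) kept its direction and its call in all 21 alternatives, with log2 differences of -1.05 to -0.73 and adjusted p-values of 2.97e-05 to 0.0336. Every alternative reused the library columns from which ABH1 was picked, so none is independent of that choice. Leaving out 1 library gave -1.01 to -0.73. Its untested log2 differences moved by more than the replicate spread only with a pseudocount of 5, to -3.79 from Col-0 (LUC) and -2.91 from prors1 (LUC) in rls6; leaving out 1 library gave -4.55 to -4.18 and -3.64 to -3.27. Counts of called genes moved more. In prors1 (LUC) against Col-0 (LUC), 369 genes higher became 205 with library totals, 205 with DESeq2 and 233 without the trend, and 316 lower became 158 with DESeq2, 196 without the trend and 188 to 286 with 1 library left out. In rls6 against Col-0 (LUC), 236 lower became 435 with upper-quartile factors, 415 with library totals, 104 with DESeq2 and 122 to 255 with 1 library left out; it was 147 without Col-0 (LUC) replicate 1, 122 without replicate 3 and 149 without rls6 replicate 2. In rls6 against prors1 (LUC), 246 lower became 152 without a filter, 401 with upper-quartile factors, 163 with library totals, 92 with DESeq2, 146 without the trend and 160 to 274 with 1 library left out, lowest without rls6 replicate 3. The cause was not tested. The alternatives for single neighbours and listed genes were added after seeing the data. AT2G05925 kept both calls in all 21 alternatives, while AT2G13530 lost its call in 5, AT2G13520 in 5 and AT2G13490 in 2. AGO1 lost its call in prors1 (LUC) against Col-0 (LUC) in 8, and that in rls6 against prors1 (LUC) in 13. Replicate numbers were not taken as pairing, since same-numbered libraries correlated at -0.02 to 0.15 and only 2 of 9 such pairs exceeded 0.1. The best match had the same number in 13 of 18 cases, where equal matching would give 6, a hint of pairing from the data and not from the design. With the replicate block, calls were 452 higher and 373 lower, 660 and 307, and 610 and 299 in the 3 comparisons, and ABH1 in prors1 (LUC) had an adjusted p of 0.00100. Depth limits the rls6 level of ABH1, which rests on 23 reads, and leaves all but 5 of the 82 listed pathway genes untested.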
